A study of Mus musculus with 4 samples.

Results

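The oxidative phosphorylation genes described here are the 103 genes, of the 32285 in the tables, whose symbols begin with Nduf, Uqcr, Cox4, Cox5, Cox6, Cox7, Cox8, Atp5 or mt-. The mitochondrial genome encodes 13 of them and the nucleus 90. They were measured in 4 fresh frozen sections of subcutaneous MC38 tumors, each from a different tumor, by 10x Visium, which counts RNA on a grid of spots that each cover a small region of tissue. The MC38 line derives from a colon tumor of a C57BL/6 mouse. All hosts were female F1 mice of 8 to 12 weeks with a C57BL/6J parent. The other parent was CC075/UncJ for 2 sections (CC075F1, a cross the study lists among its anti-PD-1 responders) and CC080/TauUncJ for 2 sections (CC080F1, listed among the non-responders). All of them carried MC38 tumors and were given isotype control antibody (2A3) once, at 200 µg, with the tumors removed 48 hours afterwards. The study's text gives the Collaborative Cross strain as the mother of its crosses, but the section titles put the C57BL/6J parent first and name no mother. Which parent's mitochondrial genome the host cells carry was therefore not settled here. MC38 cells carry their own, and the counts used here do not tell host and tumor copies apart.

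Oxidative phosphorylation is the passage of electrons through complexes I to IV of the inner mitochondrial membrane to oxygen, which pumps the protons that drive ATP synthase, complex V. Complexes I, III, IV and V are built from subunits of both genomes: the mitochondrial genome provides core subunits and is transcribed as long precursors that are then cut into single mRNAs, while most subunits are made in the cytosol and imported. Several nuclear subunits of complexes IV and V come as alternative isoforms, some of them typical of heart and skeletal muscle, and hypoxia is known to change the use of some isoforms through the transcription factor HIF. By role, the nuclear genes comprise 37 subunits of complex I (NADH dehydrogenase), 8 of complex III (cytochrome c reductase), 20 of complex IV (cytochrome c oxidase, with Ndufa4 and Ndufa4l2 counted here), 17 of complex V and 8 assembly factors of complex I. The mitochondrially encoded genes comprise 7 of complex I, 1 of complex III, 3 of complex IV and 2 of complex V.

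The sections held 2709 to 3276 spots and 82594649 to 146460975 UMIs (unique molecular identifiers, each marking 1 captured RNA molecule), with medians of 31158 to 41740 UMIs per spot. Spots of different sections share 2016 to 2793 barcodes, because a Visium barcode marks a grid position, and spots are not replicates: the section is the unit throughout. Of the epithelial or carcinoma list, Krt8, Krt18, Krt19 and Epcam were all close to 0 (at most 0.382 CPM, UMIs of a gene scaled to a common library total). Shisal2b, which the study uses to mark MC38 cells and which is counted in the same list, reached 123 to 267 CPM. CC075F1 section 2 was the deepest and held 30 spots of skeletal muscle. A median spot held 548 to 711 mitochondrially encoded and 980 to 1438.5 nuclear oxidative phosphorylation UMIs, and no spot was without either.

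The first question was how much of the RNA these genes made up in each section. Mitochondrially encoded genes took 2.13% and 1.70% of all UMIs in CC075F1 sections 1 and 2. They took 2.38% and 2.04% in CC080F1 sections 1 and 2. The strain values overlapped, with means of 1.92% ± 0.30 in CC075F1 and 2.21% ± 0.24 in CC080F1 (SD, n = 2). Nuclear genes took 3.23% and 3.53% of the non-mitochondrial UMIs in CC075F1 sections 1 and 2. They took 3.16% and 3.18% in CC080F1 sections 1 and 2. Both CC075F1 sections were thus above both CC080F1 sections, but section 1 by little, and CC075F1 section 2 alone stood apart. Of the complexes, complex I (0.925% ± 0.068 against 0.847% ± 0.0019) and complex IV (1.02% ± 0.11 against 0.911% ± 0.026) did not overlap between strains, whereas complex V made up 1.08% in both.

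The comparison of the strains asked whether single genes differed between hosts of the 2 classes. Of 102 genes tested (Cox8c had 0 UMIs in every section, which allows up to 0.0205 to 0.0363 CPM), 0 passed an adjusted p of 0.05 in edgeR's quasi-likelihood test on UMIs summed per section, beside 0.0899% of all 15572 genes tested, and 0 reached an unadjusted p under 0.05, beside 5.43% of all genes. By DESeq2 the count of these genes was likewise 0, with 11 at an unadjusted p under 0.05, beside 6.74% of all genes. The median log2 fold change of nuclear members, CC075F1 over CC080F1, was 0.45, with 85 of 89 above 0, against a median of -0.02 over all genes. That of the mitochondrially encoded genes was -0.05, with 5 of 13 above 0. Scaling by library size alone moved the median over all genes to -0.31 and that of nuclear members to 0.10, so their distance from the median gene held. It rested on CC075F1 section 2, since without that section the nuclear median was 0.07 and without CC075F1 section 1 it was 0.73.

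Among nuclear genes, 27 of 90 had both CC075F1 sections above both CC080F1 sections in CPM, beside 6.63% of all genes tested, and 7 had them below, beside 30.3%. Uqcrq, a small subunit of complex III, stood at 591 and 829 CPM in the CC075F1 sections and at 467 and 627 CPM in the CC080F1 sections. The sections of the strains overlapped, and the log2 fold change of 0.75 (SE 0.43) was not called (edgeR adjusted p = 0.83). Cox5a, a complex IV subunit next to the catalytic core, stood at 560 and 674 CPM against 458 and 510 CPM, with no overlap and a log2 fold change of 0.71 (SE 0.36, edgeR adjusted p = 0.83). mt-Nd3, a core subunit of complex I, had the most negative value among genes of at least 10 CPM, -0.53 (SE 0.36, edgeR adjusted p = 0.83), from 347 and 154 CPM against 552 and 308 CPM. The next were mt-Nd4 (-0.19) and mt-Nd1 (-0.18).

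Cox6a2, the isoform of a complex IV subunit typical of heart and skeletal muscle, varied more between sections of 1 strain than between strains. It stood at 15.7 and 74.3 CPM in CC075F1 sections 1 and 2 and at 10.6 and 43.3 CPM in CC080F1 sections 1 and 2, so section 2 was the higher one in both strains. Its log2 fold change between strains was 1.20 (SE 0.91, edgeR adjusted p = 0.83), and it ran from -0.77 without CC075F1 section 2 to 2.65 without CC080F1 section 2, where it was called (edgeR adjusted p = 4.7e-07). It was also called with no filter on low counts (adjusted p = 0.00045) and with replicate numbers as a block (adjusted p = 0.021). Cox8b, another muscle isoform, had 122 UMIs in CC075F1 section 2, the section with muscle spots, and 2 to 20 in the others. Per section the 8 skeletal muscle markers summed to 163 CPM in CC075F1 section 2 and to 3.98 to 19.7 CPM in the others. In the 30 muscle spots Cox6a2 reached 270 CPM.

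Across the spots of a section, both groups of genes varied on different scales and in different places. The mitochondrially encoded share ran from 1.17% at the 5th percentile to 4.85% at the 95th in CC075F1 section 1 and over at least a 4.11-fold range in all 4 sections. The nuclear share spanned 1.26-fold to 1.37-fold between the same percentiles. In the maps of the levels per spot, high mitochondrially encoded shares formed patches and rims, while low nuclear shares lay where the hypoxia list was high.

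**Figure D1:**
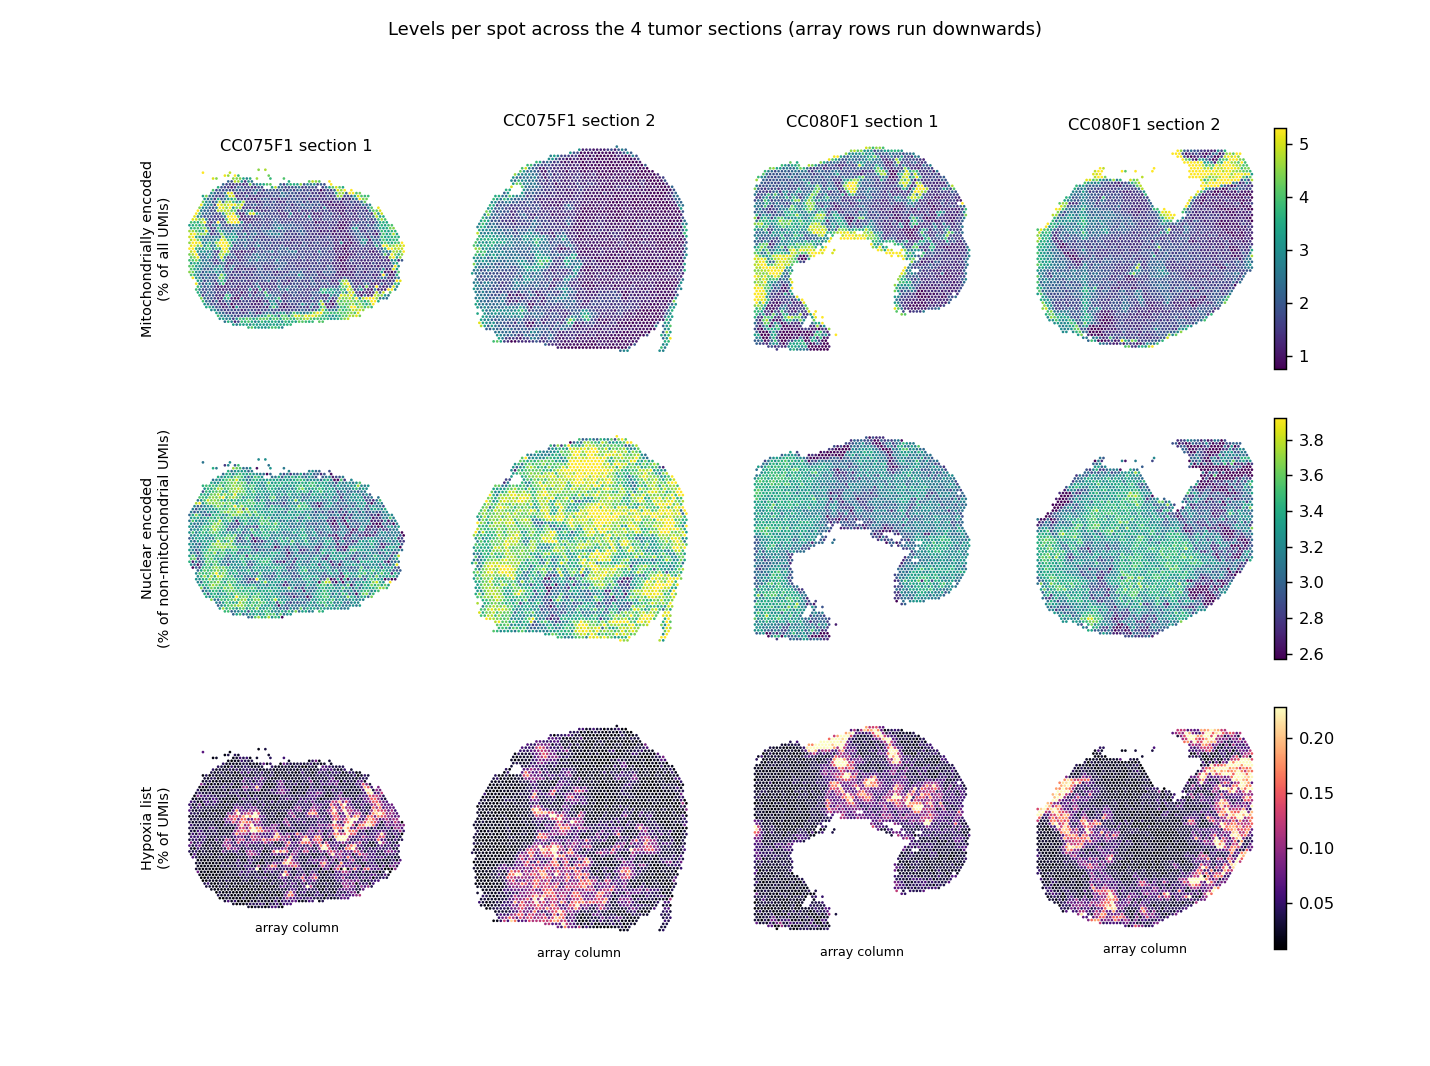
Spots of the 4 sections at their array positions, coloured by the share of mitochondrially encoded genes in all UMIs (top), of nuclear oxidative phosphorylation genes in non-mitochondrial UMIs (middle) and of the 10-gene hypoxia list in all UMIs (bottom), each row on 1 colour scale cut at the 2nd and 98th percentiles. The mitochondrially encoded share is high at many borders, and CC075F1 section 2 has the highest nuclear share, 3.53%.

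Spearman's rho between the shares of the 2 genomes was 0.15 and -0.18 in CC075F1 sections 1 and 2 (2709 and 3276 spots) and -0.02 and 0.06 in CC080F1 sections 1 and 2 (2787 and 3174 spots), with a mean of 0.0020 ± 0.144 (SD, n = 4 sections). Values of 1 section share a library and spot depth, so these are descriptions with no test. No section gave more than a weak relation, and the sign was not the same in all. Thinning each spot to 10000 UMIs gave -0.17 to 0.16, and averaging each spot with its 6 neighbours gave -0.30 to 0.21.

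Within each genome the genes moved together. Nuclear complexes correlated with each other in each section, from 0.27 (complex I with III, lowest section) to 0.58 (complex I with V, highest section). Each of the 10 mitochondrially encoded genes with at least 1 UMI per spot correlated with the sum of the others in all 4 sections, with means from 0.55 for mt-Nd5 to 0.93 for mt-Atp6. Of the 76 nuclear genes at that level, 71 correlated positively in all sections with the rest of the nuclear genes, and Cox7a2l and Ndufv3 negatively in all 4 (means of -0.18 and -0.12). The nuclear share correlated with the mitochondrial ribosome (78 genes, 0.48 to 0.71), proliferation genes (0.33 to 0.52) and enzymes of the TCA cycle (0.24 to 0.42), whereas the mitochondrially encoded share gave -0.29 to -0.03 with the mitochondrial ribosome.

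Edge spots were those within 3 steps of the nearest off-tissue position (20.3% to 31.6% of spots). The mitochondrially encoded share in edge and interior spots was 2.89% and 2.01% in CC075F1 section 1. It was 2.04% and 1.65% in CC075F1 section 2. In CC080F1 it was 2.53% and 2.32% in section 1 and 2.64% and 1.92% in section 2. The ratio was therefore above 1 in all 4 sections, 1.28 ± 0.15 on average (SD, n = 4), and lowest in CC080F1 section 1 (1.09). With an edge of 5 steps it was 0.983 in that section and above 1 in the other 3. The nuclear share moved less, with a ratio of 0.971 ± 0.038. Most of the difference lay in the outermost spots. In the first ring the mitochondrially encoded share was 2.55% to 3.50%, and at 6 to 8 steps it was 1.62% to 2.21%. CC080F1 section 1 was the exception further in, at 2.68% at 13 steps or more.

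**Figure D2:**
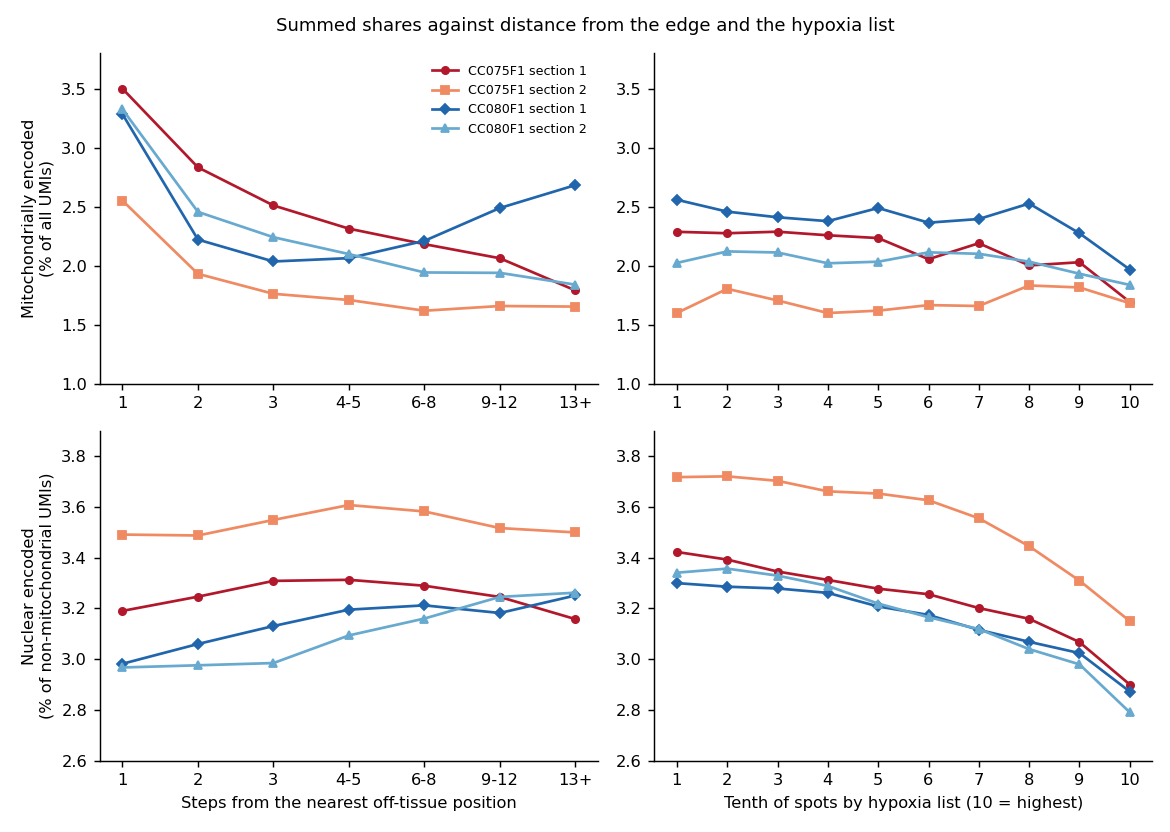
Share of mitochondrially encoded genes in all UMIs (top) and of nuclear oxidative phosphorylation genes in non-mitochondrial UMIs (bottom) by steps from the nearest off-tissue position (left) and by class of spots on the hypoxia list, each holding 10% of spots (right); each line is 1 section, vertical axes do not start at 0. The outermost ring is highest for the mitochondrially encoded share in all 4 sections (2.55% to 3.50%), and the nuclear share is lowest in the most hypoxic class of every section (2.79% to 3.15%).

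In the paired test of edge over interior spots within sections, 0 of 101 members passed an adjusted p of 0.05 in edgeR, beside 0.871% of all 14345 genes tested (0.788% higher). At an unadjusted p under 0.05 there were 37, comprising 12 of the 13 mitochondrially encoded genes, all higher, 24 nuclear genes that were lower and 1 that was higher, beside 18.2% of all genes. DESeq2 called 18, of which 10 were higher and 8 lower, beside 4.15% of all genes. The mitochondrially encoded genes had a median log2 fold change of 0.49, with all 13 above 0, and the nuclear ones of -0.10, with 11 of 88 above 0, against -0.02 over all genes. Higher in all 4 sections were 12 of 13 mitochondrially encoded genes, beside 17.5% of all genes, and lower in all 4 sections were 24 of 88 nuclear genes, beside 7.03%.

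mt-Atp8, a small membrane subunit of complex V, had the largest value. Its edge and interior levels were 31.0 and 11 CPM in CC075F1 section 1, 16.8 and 6.44 CPM in CC075F1 section 2, 17.8 and 15.5 CPM in CC080F1 section 1 and 19.5 and 9.05 CPM in CC080F1 section 2. The edge was higher in each, least so in CC080F1 section 1, with a log2 fold change of 0.98 (SE 0.18, edgeR adjusted p = 0.058). mt-Atp8 overlaps mt-Atp6 on the same strand, and the pair also shares a transcript, so its reads are not fully its own.

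Among genes of at least 10 CPM mt-Nd3 came next, at 590 and 308 CPM in edge and interior of CC075F1 section 1, 275 and 136 CPM in CC075F1 section 2, 593 and 536 CPM in CC080F1 section 1 and 436 and 284 CPM in CC080F1 section 2. It was higher at the edge in every section, by 0.62 on the log2 scale (SE 0.12, edgeR adjusted p = 0.059). mt-Nd1, another core subunit of complex I, followed with 0.55 (SE 0.11, edgeR adjusted p = 0.065). mt-Co1, the catalytic subunit of complex IV, had the smallest value of the 13, 0.15 (edgeR adjusted p = 0.47). The most negative nuclear values were -0.29 for Ndufv3 (edgeR adjusted p = 0.10), -0.24 for Uqcrb (0.12) and -0.23 for Ndufa12 (0.17), and all 3 were lower at the edge in every section.

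**Figure D3:**
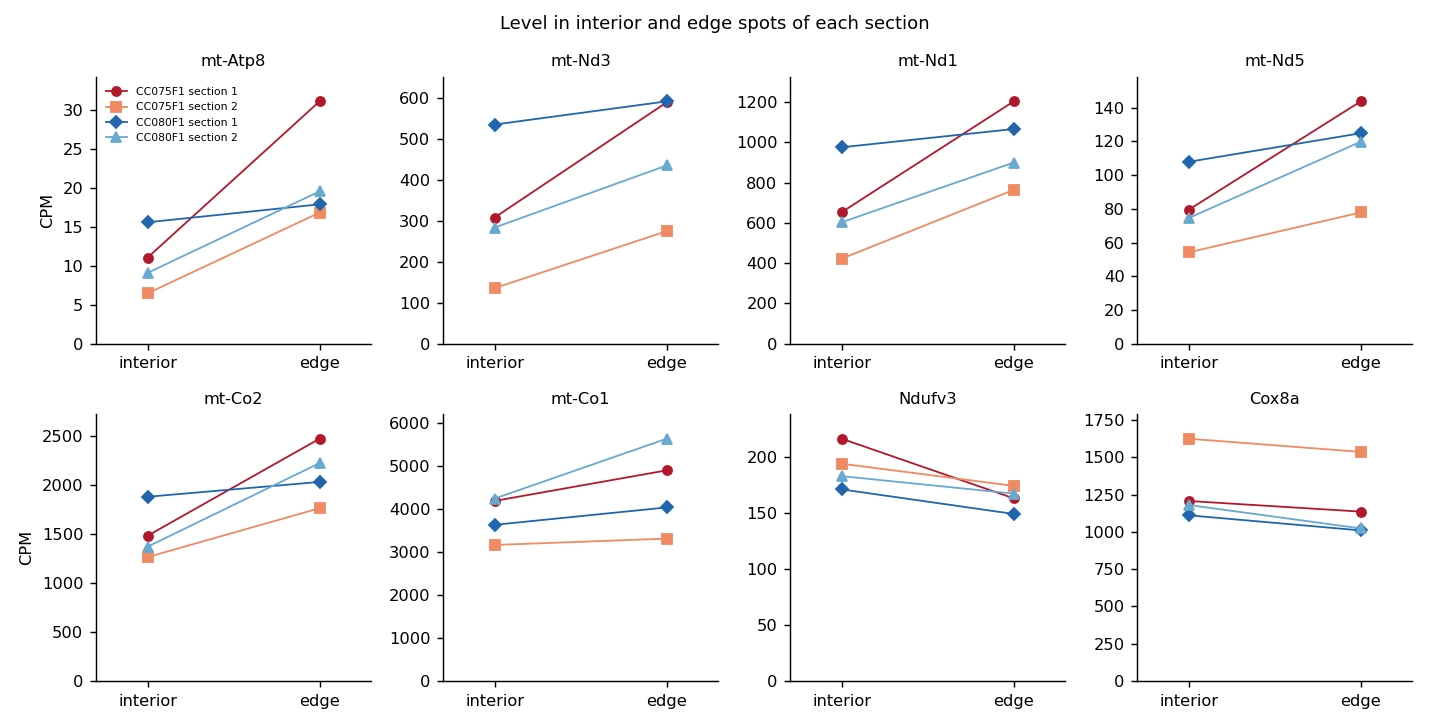
Level in CPM of 6 mitochondrially encoded and 2 nuclear genes in the interior and edge spots of each section; points of 1 section are joined, and axes start at 0. The mitochondrially encoded genes are higher at the edge in all 4 sections, with mt-Atp8 at 31.0 against 11 CPM in CC075F1 section 1, and Ndufv3 and Cox8a are lower.

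Whether members passed depended on how the edge was drawn and on the tool. With an edge of 2 steps 7 passed (beside 1.41% of all genes), and with only the outer boundary 5 (beside 1.85%), all of them mitochondrially encoded and higher. Without CC080F1 section 1, 11 passed, of which 9 were higher, beside 5.95% of all genes. When edge and hypoxia were fitted together 31 passed, 12 higher and 19 lower, beside 9.51%. That fit used 4 sums per section instead of 2, from the same 4 tumors, so its counts cannot be set directly against those of the other fits. Several other measures moved with the edge, and their part in the result was not tested beyond what follows. Its spots were shallower, with medians of 18036, 25171, 30120 and 26854.5 UMIs against 33591.5, 46146, 34844 and 37003 in the interior. Adipocyte, endothelial and neutrophil markers summed higher at the edge in all 4 sections: the 6 adipocyte markers to 70.7 to 134 CPM against 24.1 to 65.5 CPM, the 5 endothelial ones to 122 to 169 CPM against 58.1 to 156 CPM and the 4 neutrophil ones to 7.10 to 14.3 CPM against 3.57 to 5.58 CPM, with no marker at 0 in all sections. Other sums moved most in single sections. In CC075F1 section 2 the muscle markers summed to 1143 CPM at the edge against 16.7 CPM and the 6 fibroblast markers to 2741 against 857 CPM. In CC080F1 section 2 the 4 erythrocyte markers summed to 704 against 53.5 CPM. The fibroblast sum was higher at the edge in 2 sections and the erythrocyte sum in 3. Taken singly, 4 of the 6 fibroblast markers were higher in all 4 sections, beside 17.5% of all genes. Of the 6, 3 were called higher, beside 0.788% of all genes. With spots of at least 10000 UMIs and under 1% of UMIs from muscle, skin and fat markers, the mitochondrially encoded ratio was 1.26 ± 0.14 (n = 4). In that fit 2 members passed, beside 1.35% of all genes. The 1% cut alone removed 0 and 33 spots of CC075F1 sections 1 and 2 and 0 and 2 spots of CC080F1 sections 1 and 2. It left the part of the adipocyte markers untested. In these sums, fewer cells of a type and less RNA per cell cannot be told apart.

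The interaction of strain with the edge called 0 members, beside 0.0837% of all genes (0.0697% higher and 0.0139% lower in CC075F1), with 5 at an unadjusted p under 0.05, beside 8.75%. The smallest adjusted p was that of Cox6a2 (0.14). Single sections decided this count: without CC080F1 section 2, 4 members were called (Cox6a2, Ndufa4l2, mt-Atp8 and mt-Nd3), and without CC080F1 section 1 there was 1, Cox6a2.

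Hypoxic spots were the 25% of each section with the highest share of a 10-gene hypoxia list that holds no oxidative phosphorylation gene. They carried 3.95 ± 0.36 times the list's share of the other spots, and 1.71 ± 0.06 times the share of 12 glycolysis genes (SD, n = 4 sections). All 10 hypoxia genes rose, which only restates the choice of spots, and all 12 glycolysis genes rose, Pgk1 among them (log2 fold change 1.27, SE 0.07).

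The nuclear share was lower in hypoxic than in other spots of every section, by a ratio of 0.905 ± 0.012 (SD, n = 4). The mean ratios of complexes V, III, I and IV were 0.876 ± 0.022, 0.885 ± 0.019, 0.924 ± 0.016 and 0.929 ± 0.0096, and their order was not the same in every section. Across spots, the nuclear share had rho of -0.51, -0.58, -0.54 and -0.56 with the hypoxia list in CC075F1 sections 1 and 2 and CC080F1 sections 1 and 2, and the values given spot depth ran from -0.58 to -0.52. From the 10% least to the 10% most hypoxic spots it went from 3.42% to 2.90%, 3.72% to 3.15%, 3.30% to 2.87% and 3.34% to 2.79% in the same order. The mitochondrially encoded share went from 2.29% to 1.69%, 1.60% to 1.68%, 2.56% to 1.97% and 2.02% to 1.84% between the same classes. It was thus lower in the most hypoxic class of 3 sections, and its hypoxic to other ratio was 0.934 ± 0.086, above 1 only in CC075F1 section 2.

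That decrease in share was common to most genes. In CPM, 73 of 88 nuclear members were lower in hypoxic spots of all 4 sections, a larger part than the 51.2% of all genes. Higher in all 4 were 8 nuclear members and mt-Co1, beside 9.99% of all genes. The cytosolic ribosomal protein genes, at 1.17 ± 0.056 times their share of other spots, and the glycolysis genes took up more of the RNA. Their part in the decrease was not tested. With edgeR's scaling the median log2 fold change was 0.0095 for nuclear members and -0.12 for mitochondrially encoded ones against -0.0001 over all genes, and with library size alone they were -0.18 and -0.30 against -0.19. The median of nuclear members was thus close to that of all genes under both scalings.

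Single members departed from that median in both directions, though a smaller part of them was called than of all genes. Of 101 tested, 23 passed an adjusted p of 0.05 in the paired edgeR test, beside 34.7% of all 14411 genes. Of these, 11 rose (beside 17.8% of all genes) and 12 fell (beside 16.9%). The 10 nuclear genes that rose were 4 of complex I (Ndufv3, Ndufa6, Ndufa7, Ndufb9), 4 of complex IV (Cox6a2, Cox7a1, Cox7a2l, Cox4i1), Uqcrq of complex III and Atp5g2 of complex V. The 8 nuclear genes that fell were Ndufa5 and Ndufs1 of complex I, Uqcrc1 of complex III, Atp5g3, Atp5j and Atp5k of complex V and the assembly factors Ndufaf2 and Ndufaf4. Of the mitochondrially encoded genes, mt-Co1 rose and mt-Nd1, mt-Nd2, mt-Nd3 and mt-Nd4 fell. With library size alone the split was 6 higher and 67 lower, beside 45.1% of all genes called. All 23 kept their sign, 6 of the 11 that rose were still called (Cox6a2, Ndufv3, mt-Co1, Cox7a2l, Atp5g2, Ndufa6), and so were all 12 that fell. Without CC080F1 section 2 the count was 10, with 5 in each direction, beside 19.3% of all genes.

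**Figure D4:**
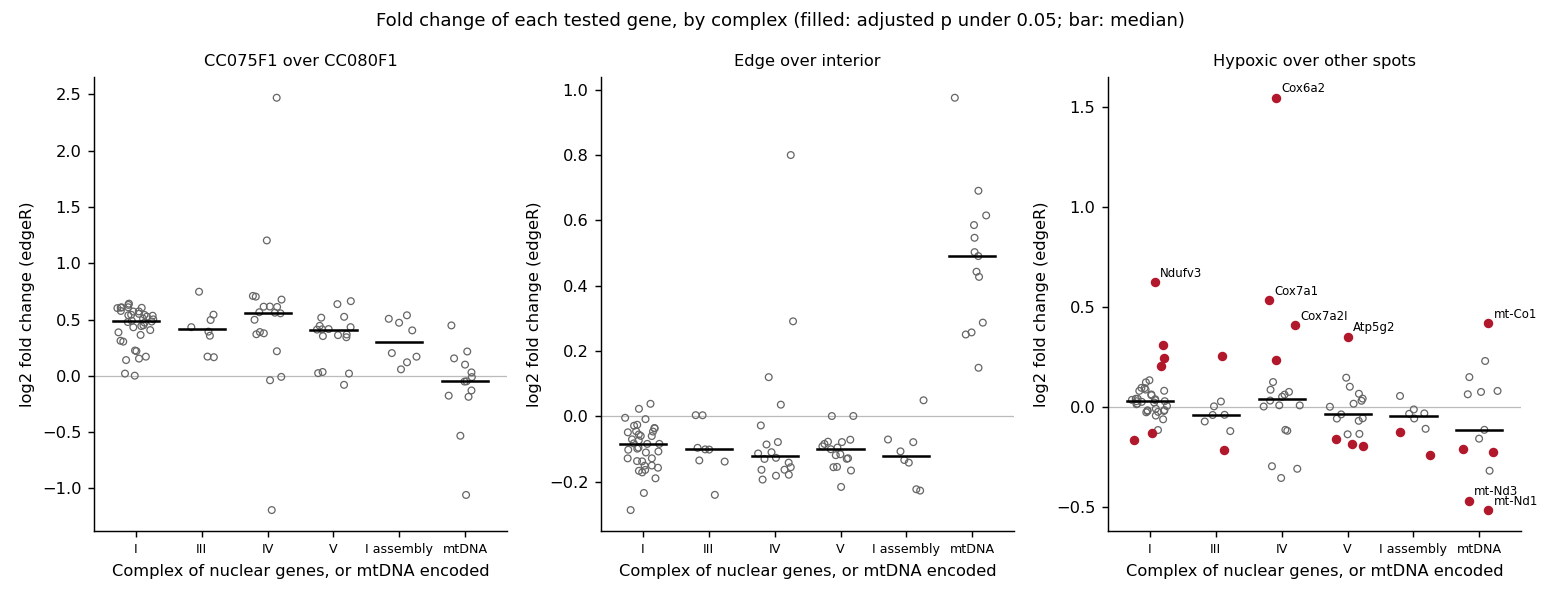
Log2 fold change of each tested gene in the 3 comparisons, by complex for nuclear genes and as 1 group for mitochondrially encoded (mtDNA) ones; filled points passed an adjusted p of 0.05 in edgeR, open points did not, and bars are medians. The mitochondrially encoded genes stand at a median of 0.49 at the edge, and 23 genes passed in hypoxic spots, Cox6a2 highest.

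Cox6a2 had the largest change, at chr7:128205435-128206387 (GRCm38, minus strand). It stood at 28.3 CPM in hypoxic and 11.3 CPM in other spots of CC075F1 section 1, at 129 and 50.3 CPM in CC075F1 section 2, at 21.4 and 7.00 CPM in CC080F1 section 1 and at 75.8 and 33.9 CPM in CC080F1 section 2. Hypoxic spots were higher in all 4 sections, with a log2 fold change of 1.55 (SE 0.07, edgeR adjusted p = 1.4e-06). In the 3 sections without muscle spots Cox6a2 was seen in 25.4% to 55.5% of spots, at up to 8 to 21 UMIs. Summed over the 8 skeletal muscle markers, hypoxic against other spots gave 5.75 against 5.54 CPM and 9.83 against 231 CPM in CC075F1 sections 1 and 2. In CC080F1 sections 1 and 2 they gave 13.8 against 21.6 CPM and 3.12 against 4.22 CPM. The sum was thus higher in hypoxic spots of 1 section, and no marker was at 0 in all sections. In spots without any UMI of those markers (2292, 2048, 2027 and 2766 spots, an analysis chosen after the values were seen) Cox6a2 stood at 29.9 against 11.3 CPM, 130 against 54.0 CPM, 21.4 against 6.45 CPM and 77.3 against 34.8 CPM, again higher in hypoxic spots of all 4 sections. Its single overlapping gene, Itgad on the opposite strand, had 1 to 5 UMIs per section.

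Ndufv3, a small accessory subunit of complex I, was the next, at 267 against 189 CPM, 222 against 178 CPM, 204 against 151 CPM and 233 against 165 CPM in hypoxic against other spots of CC075F1 sections 1 and 2 and CC080F1 sections 1 and 2. Every hypoxic value was above every value of the other spots, with a log2 fold change of 0.62 (SE 0.05, edgeR adjusted p = 3.1e-05). Cox7a2l, counted here with complex IV, stood at 406 against 358 CPM, 477 against 393 CPM, 330 against 283 CPM and 402 against 348 CPM in the same order. It was higher in each section, with a log2 fold change of 0.41 (SE 0.06, edgeR adjusted p = 0.0013). Ndufa6, an accessory subunit of complex I, rose by 0.31 (SE 0.05, edgeR adjusted p = 0.0027). Across spots, 7 of 76 nuclear genes correlated positively with the hypoxia list in all 4 sections (Atp5g2, Cox4i1, Cox7a2l, Ndufa6, Ndufa7, Ndufv3 and Uqcrq), with Ndufv3 highest at a mean rho of 0.26, and 68 negatively.

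mt-Co1 and mt-Nd1 are read from the same strand of the mitochondrial genome, at positions 5328 to 6872 and 2751 to 3707, and they moved apart. mt-Nd1 stood at 496 against 807 CPM in hypoxic against other spots of CC075F1 section 1, at 298 against 541 CPM in CC075F1 section 2, at 761 against 1083 CPM in CC080F1 section 1 and at 428 against 714 CPM in CC080F1 section 2. It fell by 0.52 on the log2 scale (SE 0.05, edgeR adjusted p = 0.00016), and mt-Nd3 fell by 0.47 (SE 0.05, edgeR adjusted p = 0.00015), from 176 to 599 CPM in other spots to 104 to 414 CPM in hypoxic ones. mt-Co1 stood at 4305 against 4285 CPM, 4165 against 2753 CPM, 3937 against 3692 CPM and 5064 against 4297 CPM in the same order. It was higher in all 4 sections, but by little in CC075F1 section 1, with a log2 fold change of 0.42 (SE 0.13, edgeR adjusted p = 0.029). It was not called without CC080F1 section 2, with interior spots alone or by DESeq2. The ratio of mt-Co1 to mt-Nd1, which no scaling touches, changed by 0.71, 1.46, 0.60 and 0.98 on the log2 scale, a mean of 0.94 ± 0.38 (n = 4). The pair was chosen from the calls above, so this is a description with no test. At the edge the same ratio changed by -0.66 and -0.79 in CC075F1 sections 1 and 2 and by 0.02 and -0.17 in CC080F1 sections 1 and 2.

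**Figure D5:**
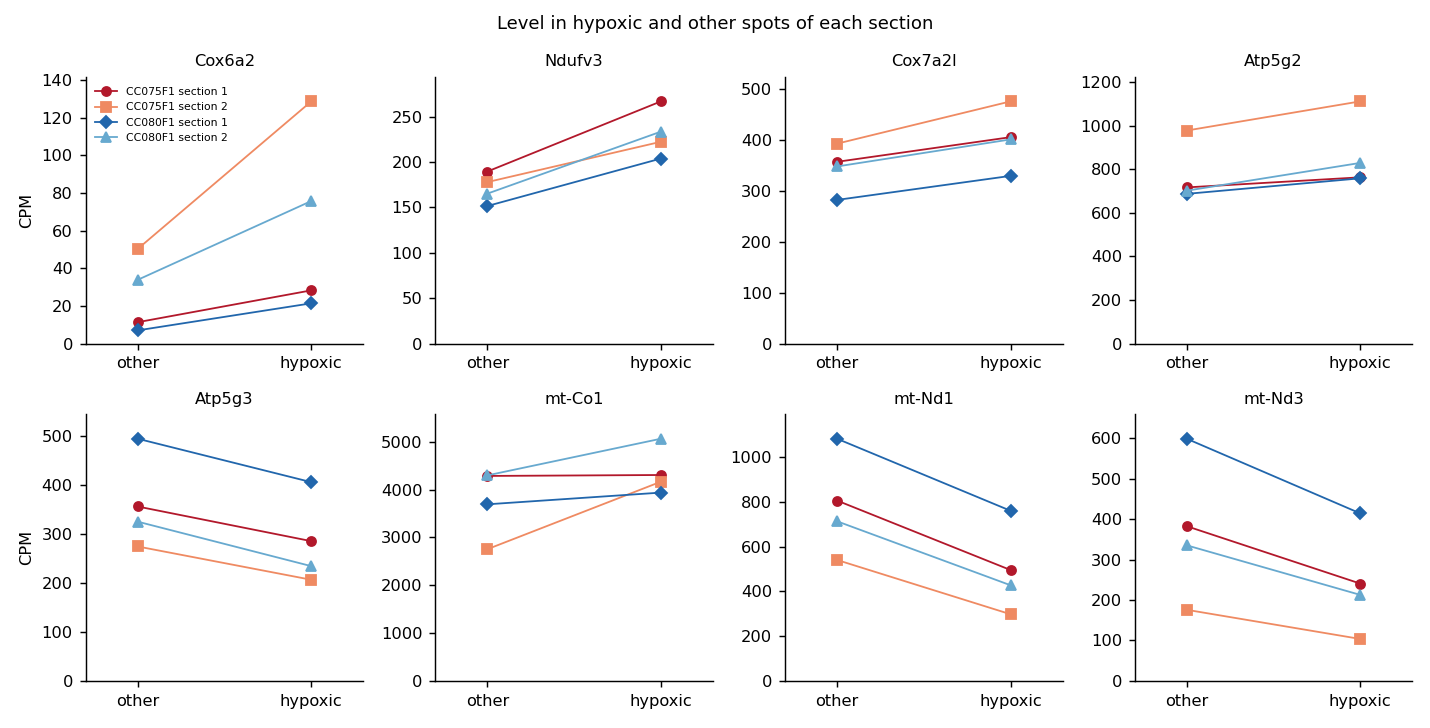
Level in CPM of 8 genes in the other and the hypoxic spots of each section; points of 1 section are joined, and axes start at 0. Cox6a2, Ndufv3, Cox7a2l, Atp5g2 and mt-Co1 are higher in the hypoxic spots of all 4 sections, and Atp5g3, mt-Nd1 and mt-Nd3 are lower.

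Isoforms of a subunit did not move alike in hypoxic spots. Atp5g1, Atp5g2 and Atp5g3 encode the same mature c subunit of the rotor of complex V. Atp5g2 stood at 762 against 716 CPM, 1111 against 977 CPM, 758 against 687 CPM and 829 against 701 CPM in hypoxic against other spots of CC075F1 sections 1 and 2 and CC080F1 sections 1 and 2. It rose by 0.35 on the log2 scale (SE 0.07, edgeR adjusted p = 0.0042). Atp5g3 stood at 285 against 356 CPM, 207 against 275 CPM, 406 against 495 CPM and 234 against 325 CPM, and fell by 0.19 (SE 0.05, edgeR adjusted p = 0.015), a call lost without CC075F1 section 1, CC080F1 section 1 or CC080F1 section 2. Atp5g1 gave -0.06 (edgeR adjusted p = 0.43). The ratio of Atp5g2 to Atp5g3 was higher in hypoxic spots of all 4 sections, by 0.54 ± 0.14 on the log2 scale (n = 4).

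Of the complex IV isoforms, the ratio of Cox6a2 to the widely expressed Cox6a1 was higher by 1.5 ± 0.16 on the log2 scale, in 4 of 4 sections. Cox7a2l is counted with complex IV by its symbol and is not read here as an isoform of Cox7a2. The ratio of Cox7a2l to Cox7a2 was higher by 0.41 ± 0.059, also in 4 of 4 sections. As these ratios hold genes called in the same spots, they were not tested. Cox6a1 (0.05) and Cox7a2 (0.00072) were not called. Cox7a1, the muscle isoform, was at only 1.57 to 3.44 CPM in all spot groups and rose by 0.53 (SE 0.13, edgeR adjusted p = 0.012), without passing once CC080F1 section 2 was left out or with library size alone. Cox4i1, the common isoform of the regulatory subunit 4, rose by 0.23 (SE 0.06, edgeR adjusted p = 0.021), under the same limits.

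Cox4i2 and Ndufa4l2, isoforms known as targets of HIF in other cells, were scarce and not called. Cox4i2 stood at 1.52 to 3.37 CPM in hypoxic and 2.70 to 3.67 CPM in other spots, with a log2 fold change of -0.12 (SE 0.20, edgeR adjusted p = 0.67). Ndufa4l2 stood at 2.28 against 3.98 CPM, 2.85 against 7.04 CPM, 5.23 against 7.28 CPM and 6.84 against 5.62 CPM in hypoxic against other spots of CC075F1 sections 1 and 2 and CC080F1 sections 1 and 2, lower in 3 of 4 sections, with -0.36 (SE 0.21, edgeR adjusted p = 0.21). Cox6b2 gave -0.31 (edgeR adjusted p = 0.38), and Cox8b and Cox8c were too low to test.

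Promoters are shown for a gene of each direction whose RefSeq start matched the annotated gene start, Ndufv3, which rose, and Ndufaf4, which fell by 0.24 on the log2 scale (SE 0.05, edgeR adjusted p = 0.0080). Shown are the 250 bases before the start (RefSeq, GRCm38.p6, 5′ to 3′, plus strand), with matches in capitals to the core bound by HIF, ACGTG or GCGTG on either strand.
Ndufv3 at chr17:31519865-31520114: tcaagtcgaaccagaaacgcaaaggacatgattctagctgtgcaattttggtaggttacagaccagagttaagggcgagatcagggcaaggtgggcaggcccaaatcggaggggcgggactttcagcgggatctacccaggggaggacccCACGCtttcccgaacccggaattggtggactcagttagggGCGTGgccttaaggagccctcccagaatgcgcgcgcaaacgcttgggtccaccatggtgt
Ndufaf4 at chr4:24897833-24898082: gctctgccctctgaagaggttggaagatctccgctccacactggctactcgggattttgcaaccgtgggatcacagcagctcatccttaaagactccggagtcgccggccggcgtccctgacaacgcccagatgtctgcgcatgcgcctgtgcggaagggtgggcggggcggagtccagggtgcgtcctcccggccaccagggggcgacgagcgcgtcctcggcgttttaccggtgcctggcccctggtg
The Ndufv3 window held 2 matches, 100 and 60 bases before the start, and the Ndufaf4 window 0. Of the others read, Ndufa6 rose and had 0 matches, Cox7a1 rose and had 2, and Uqcrc1 fell and had 0. A window with a match was found for 38 of the 72 nuclear members in the table (52.8%), beside 41.5% of all genes in it, for 4 of the 6 listed genes that rose in hypoxic spots and for 4 of the 7 listed genes that fell. These are letter matches in 1 window and no evidence of binding.

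Other genes of mitochondrial respiration, from lists that hold none of the 103, are read here against the 17.8% of all genes that rose and 16.9% that fell in hypoxic spots. Of the 4 genes of complex II, which feeds electrons from succinate and is wholly nuclear, 1 fell (Sdha, -0.13, SE 0.04). Of 12 TCA cycle genes 5 fell, with Ogdh most (-0.35, SE 0.04, more than any called nuclear member), and Idh3g rose. Of 23 assembly genes for complexes III and IV 5 rose, Sco2 most (0.27, SE 0.08), and Cox10 fell. Of 12 genes that transcribe, translate or maintain mitochondrial DNA, 1 fell (Tfb2m), and of 7 regulators of mitochondrial biogenesis tested, 1 fell (Pprc1). Of 78 mitochondrial ribosome genes, 10 rose and 13 fell, with a median of -0.01.

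Other measures differed between hypoxic and other spots too. All 5 endothelial markers fell (26.7 to 88.4 CPM summed, against 84.0 to 184 CPM), as did all 6 T cell markers (7.28 to 38.2 CPM, against 14.8 to 62.8 CPM) and 7 of 8 proliferation genes, with no marker at 0 in all sections. Sums of the adipocyte markers (12.9 to 35.9 CPM against 36.4 to 77.8 CPM), the 7 macrophage markers (2400 to 3814 CPM against 2527 to 4270 CPM) and the list with the MC38 marker Shisal2b (108 to 214 CPM against 126 to 283 CPM) were also lower in hypoxic spots of all 4 sections. In CPM, 51.2% of all single genes were lower in all 4 as well. Of the 7 macrophage markers, 4 were lower in all 4 sections, with 3 called lower and 1 called higher. Of the 6 fibroblast markers, 4 were lower in all 4 sections, with 3 called lower and 1 called higher, and their sum was higher in 1 section. Median depth was 32522 against 30656, 55845 against 36984, 34305 against 33385.5 and 27705 against 36467 UMIs in hypoxic against other spots of CC075F1 sections 1 and 2 and CC080F1 sections 1 and 2. When hypoxic spots were drawn within 10 classes of spot depth, the nuclear ratio was 0.910 ± 0.0093 and the mitochondrially encoded ratio 0.905 ± 0.032, below 1 in all 4 sections (n = 4), and 32 members passed, beside 39.4% of all genes. The part of cell types in these differences was not tested. The interaction of strain with hypoxic spots called 0 members, beside 0.00694% of all genes, with 2 at an unadjusted p under 0.05, beside 3.85%. Ndufa4l2 was called there without CC075F1 section 1 and without CC080F1 section 1.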

How the data were processed

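UMIs were counted per gene and spot in 4 Visium sections. The authors aligned reads with Space Ranger to GRCm38 with GENCODE vM23, and the deposited counts are raw UMI counts of spots under tissue, with grid positions. Seurat 5.0.1 is named in the submitters' processing notes, and its normalized values were not used here. Visium tags reads near the 3′ end, so UMIs were not divided by gene length and levels of different genes were not ranked. Nuclear copies of mitochondrial DNA can share reads with mitochondrially encoded genes.

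From the counts, 1 spot with 0 UMIs was dropped. Shares and CPM were computed from UMIs summed over the spots of a section. UMIs summed per section, or per section and spot class, were fitted in edgeR 4.0.16 (R 4.3.3; filterByExpr, TMM, quasi-likelihood, Benjamini-Hochberg over all genes, threshold 0.05). Edge and hypoxic contrasts were paired by section, and DESeq2 1.42.0 was an alternative. With 2 sections per strain, p-values measure the spread between these sections. Section totals were 82594649 to 146460975 UMIs. The pipeline was tested on simulated data with 200 changed genes. It called 53.5% of them between strains (24% of 2-fold and 83% of 4-fold changes), 88.0% between edge and interior and 95.0% between hypoxic and other spots. False calls numbered 5 to 12 per comparison. Changes under 2-fold were not simulated, and all members called in hypoxic spots except Cox6a2 changed by less than that.

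Named genes were all mitochondrially encoded ones and the groups of isoforms or related genes. Per contrast, up to 6 called genes of at least 10 CPM with the largest change in each direction were added. Where fewer than 3 were called, the 3 largest were added. Other called genes are named only to complete a count. The members, gene lists and rules were chosen with earlier results of these data known. Gene positions came from GENCODE vM21 (GRCm38) and promoters from RefSeq. Atp5if1 was not analysed here.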

Additional observations from a re-analysis of the deposited data

Results flagged for a closer look

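At the edge, 3 nuclear sums stood on opposite sides of 1 in the strains, while complex IV was below 1 in all 4 sections (0.919 to 0.988). The complex I share had edge to interior ratios of 1.01 in both CC075F1 sections and of 0.954 and 0.938 in CC080F1 sections 1 and 2, so the CC075F1 mean was 1.07 times the CC080F1 mean. The complex III share had ratios of 1.01 and 1.03 against 0.975 and 0.917, 1.08 times on average. The complex V share had ratios of 1.03 and 1.01 against 0.950 and 0.928, again 1.08 times on average. With an edge of 2 steps the complex III ratio of CC075F1 section 1 was 0.990, so the sides no longer differed for that sum. The Spearman correlation across spots of the nuclear share with distance from the edge was -0.14 and -0.0028 in CC075F1 sections 1 and 2. It was 0.29 and 0.36 in CC080F1 sections 1 and 2, a difference of means of -0.40. Given spot depth, the values were -0.235 and 0.046 in CC075F1 sections 1 and 2 and 0.237 and 0.241 in CC080F1 sections 1 and 2. The CC075F1 sections then no longer shared a sign. These differences between strains were not tested. The hypoxia list also differed in this way: its edge to interior ratio was below 1 in both CC075F1 sections (mean 0.702) and above 1 in both CC080F1 sections (mean 1.29), and its part in these differences was not tested. With 2 sections per strain, no sample could be set apart from its group by a test.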

How the results depend on the processing

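Strain: the count of 0 members called became 2 with no filter on low counts (Cox6a2 and Cox8b) and 1 when replicate numbers entered as a block (Cox6a2, log2 fold change 0.99). Without single sections it was 0 to 1. The numbers are shared by only 2 pairs of sections that the labels do not tie to 1 batch. Deviations of same-numbered sections correlated at 0.44 over 8413 genes, and the block fit called 287 of all genes against 14 without it. Other totals were 480 with no filter, 194 with DESeq2, 40 with library size alone and 11 to 207 without single sections. The difference in nuclear share, CC075F1 minus CC080F1, of 0.212 percentage points became 0.660 with ribosomal protein genes left out of the total, and 0.0630 to 0.361 without single sections. That of the mitochondrially encoded share ran from -0.504 to -0.0803, against -0.292.

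Edge: the count of 0 became 1 with library size alone, 18 with DESeq2, 7 with 2 steps and 5 with the outer boundary only. It became 2 with deep spots under the 1% cut on other tissue and 31 when edge and hypoxia were fitted together, on 4 sums per section instead of 2. Without single sections it ran from 0 to 11, and for the interaction with strain from 0 to 4. Over all genes, the 125 calls (113 higher, 12 lower) became 596 with DESeq2 (438 higher, 158 lower). They became 202 with 2 steps, 39 with 5 steps, 266 with the outer boundary, 193 with deep spots and 1230 when fitted together. Without the pairing of edge and interior by section they became 0, and without single sections 1 to 854.

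Hypoxia: the count of 23 became 73 with library size alone and 0 without the pairing of spot classes by section (231 of all genes). It ran from 10 to 26 without single sections (10 without CC080F1 section 2), and the interaction from 0 to 1 (all-gene totals of the interactions ran from 2 to 327 at the edge, against 12, and from 49 to 332 in hypoxic spots, against 1). Over all genes the calls were 2570 higher and 2437 lower, 896 and 5600 with library size alone, and 2783 in all without CC080F1 section 2. Cox6a2 passed under 14 of 15 alternatives, all but the fit without the pairing (1.35 to 1.61 on the log2 scale over the 15). So did Ndufv3, Cox7a2l, Atp5g2, Ndufa6, Uqcrc1, Ndufaf4, mt-Nd1 and mt-Nd3.

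Values that changed sign were those of genes not called. In hypoxic spots mt-Co2 gave -0.11 with library size alone and -0.027 in interior spots, mt-Co3 -0.038 with library size alone, mt-Atp6 -0.12 with library size alone, -0.022 within classes of depth and -0.022 in interior spots, and mt-Atp8 -0.11 with library size alone and -0.060 with mean z scores. Without single sections, these and others ran over mt-Co2 -0.017 to 0.18, mt-Atp6 -0.051 to 0.14, mt-Atp8 -0.0011 to 0.16 and, between strains, Cox6a2 -0.77 to 2.65, mt-Nd4 -0.44 to 0.14 and mt-Nd1 -0.39 to 0.095. The causes were not tested. Depth limits Cox4i2, Ndufa4l2, Cox6b2, Cox7a1, Cox7b2, Cox8b and mt-Nd6, all under 10 CPM.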
